A study of Mus musculus with 10 samples.

Results

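Phosphodiesterase and cAMP genes were followed in Treg cells that had lost Foxp3 protein. The set held 10 genes chosen by name, out of 55809 gene rows counted in each library. It comprised the phosphodiesterases Pde3b, Pde2a, Pde4a, Pde4b, Pde4d and Pde7a, the adenylate cyclase Adcy7, the protein kinase A subunits Prkaca and Prkar1a, and the transcription factor Crem. Bulk RNA-seq counts were available from Treg cells of spleen and lymph nodes, with 4 R26-WT libraries (replicates 1 to 4) and 6 R26-TIR1(F74G) libraries (replicates 5 to 10). All mice carried the Foxp3-AID allele, in which Foxp3 is fused to an auxin-inducible degron at its own locus together with a ZsGreen reporter and Cre recombinase. All mice also received the auxin analog 5-ph-IAA for 14 days, so the controls share both the modified allele and the drug. R26-TIR1(F74G) mice carried in addition a ROSA26 allele in which Cre from the Foxp3 locus switches on TIR1(F74G), the plant E3 ligase component that directs the fusion protein to degradation, and mCherry, under the CAG promoter. R26-WT mice lack TIR1. The labels give neither age nor sex. The paper describes 14 days of degradation, with gene expression compared, in neonatal and adult Foxp3-AID/y mice, hemizygous males with no unmodified Foxp3 allele. Whether these libraries come from those mice was not settled here. If so, effects of Foxp3 loss within Treg cells and of inflammation around them cannot be told apart. The methods describe sorting Treg cells by ZsGreen in R26-WT mice and by both ZsGreen and mCherry in R26-TIR1(F74G) mice, so where this gate was used its effect and that of genotype cannot be told apart.

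Cyclic AMP is made from ATP by adenylate cyclases and binds the regulatory subunits of protein kinase A, which frees the catalytic subunits to phosphorylate targets that include the CREB and CREM transcription factors. Phosphodiesterases end the signal by hydrolysing cAMP. Treg cells are known for a high cAMP content, which they can pass to conventional T cells through gap junctions, and Pde3b is known as a gene that Foxp3 represses.

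The factors CREB and CREM bind the cAMP response element (CRE), with the letters TGACGTCA, and a shorter site with the letters TGACG or CGTCA, which the full element contains. These letters were searched on both strands in RefSeq promoters (mouse build GRCm38.p6, 250 bases before to 50 after each start), because the set holds a factor of that family and genes upstream of it. Promoters of 7 members were searched, 24 in all. Those of Pde3b, Pde7a and Crem were not analysed here. The full element occurred in 1.79% of the 32851 promoters in the table and in 2 of the 24 member promoters, both of Prkar1a, whose windows overlap. The shorter site occurred in 20.8% of all promoters and in 8 of the 24 member promoters, which belong to 6 of the 7 genes. The forkhead letters TGTTTAC or GTAAACA occurred in 3.65% of all promoters and in none of these members, which says only that these letters are not in this window. The windows below are plus-strand sequence from 5′ to 3′, shown as examples from each role, with the full element or shorter site in capitals. They are matches of letters and not measured binding sites.
Prkar1a, chr11:109650889-109650918: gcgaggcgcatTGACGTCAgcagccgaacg
Prkaca, chr8:83972959-83972988: tgggctgcgggggCGTCAcggacagaggac
Adcy7, chr8:88282951-88282980: gtgatcatagagcCGTCAggggggtggggc
Pde4b, chr4:102421508-102421537: tgatttggctgcaCGTCAattttctcatct
Pde4a, chr9:21184038-21184067: tggcacagctcgaCGTCAggctggggagga

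Libraries held between 24158699 and 54795718 counted read pairs, and totals were lower in R26-TIR1(F74G) than in R26-WT (two-sided exact permutation test over 210 splits, p = 0.0476). Counts were divided by DESeq2 size factors before levels were compared. The Treg identity of the libraries was checked with 8 marker genes, all of which were tested and none of which was called different. Their mean log2 normalized count was 14.04 ± 0.057 in the 4 R26-WT libraries (SD) and 13.89 ± 0.051 in the 6 R26-TIR1(F74G) libraries (SD), and these ranges did not overlap. Log2 fold changes of the 8 genes ran from -0.42 (Tnfrsf18) to 0.26 (Cd4), with a median of -0.23. The Foxp3 transcript, which the degron does not target, had 8930 ± 2366 normalized counts in R26-WT and 9401 ± 3415 in R26-TIR1(F74G) (log2 fold change 0.074, SE 0.25). Of its exon bases, 31.5% are shared with other genes, and read pairs that overlap several genes were left out of the count. Of 6 B cell genes 2 were tested and 0 called, Cd79a with 130 to 333 counts and Cd79b with 370 to 1341, while Pax5 had 3 or fewer counts in every library. The summed B cell level was 42.4 to 58.6 TPM (counts per gene length, scaled to the same sum in every library) in R26-WT and 37.7 to 54.0 TPM in R26-TIR1(F74G). Of 7 myeloid genes 2 were tested and 0 called, Lyz2 with 2 to 26 counts and Itgam with 4 to 36, while Cd14, S100a8 and S100a9 had 3 or fewer in every library. Of 6 CD8 and NK cell genes 1 was called higher, Eomes (log2 fold change 1.47, SE 0.23, DESeq2 adjusted p = 4.54e-08). Cd8b1, of the same list, had 756 to 2226 counts and was not called. Of 6 resting T cell genes 1 was called higher, Tcf7 (0.43, SE 0.12), and of 8 genes of activated Treg cells 1 lower, Tnfrsf9 (-0.49, SE 0.11). The mean levels of these lists overlapped between groups. Cell division genes did move with genotype. Of 14 such genes, 12 were called higher in R26-TIR1(F74G), and their summed level was 64.1 to 115 TPM in R26-WT and 153 to 269 TPM in R26-TIR1(F74G). The part of this shift in the results below was not tested. In bulk RNA, fewer cells that express a gene and less of its RNA per cell cannot be told apart.

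All 10 genes passed the filter of a mean count of at least 10 and were tested between genotypes with DESeq2 over 16363 genes, with calls at a Benjamini-Hochberg adjusted p under 0.05. Across all genes 1.74% were called in either direction, and of the 10 members 0 were called. At an unadjusted p under 0.05, 1 member (Pde3b) was counted, against 6.86% of all genes. The edgeR quasi-likelihood test called 0 of 10 members, with 0.373% of all genes called, and counted 0 of 10 at an unadjusted p under 0.05 (6.21% of all genes). The limma voom test also called 0 of 10, with 0.489% of all genes called. No member had groups that did not overlap, a pattern found in 2.37% of all genes. The log2 fold change was above 0 for 5 members and below 0 for 5, with a median of 0.027 beside 0.00063 over all tested genes.

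**Figure D1:**
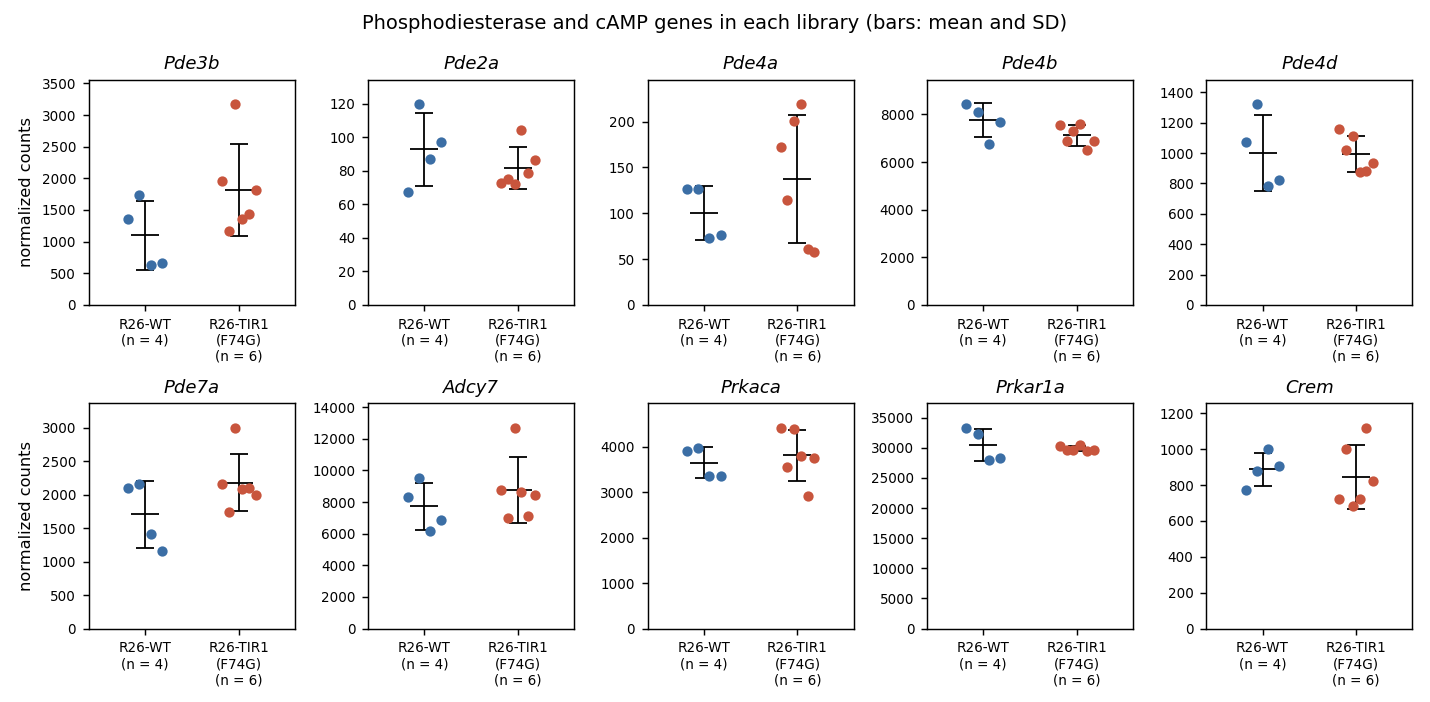
Normalized counts of each of the 10 genes (y axis, linear and starting at 0) in the 4 R26-WT (blue) and 6 R26-TIR1(F74G) (red) libraries, with horizontal bars for the mean and error bars for the SD. The groups overlap in every panel, and Pde3b has its lowest values in 2 R26-WT libraries, at 632 and 666.

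Pde3b encodes a cAMP-hydrolysing enzyme that cGMP inhibits. The gene lies on chromosome 7, 114014516 to 114138486, plus strand (positions of genes are on GRCm39 throughout), with no exon base shared with another gene. Its normalized counts in R26-WT were 1353, 1743, 632 and 666. In R26-TIR1(F74G) they were 1957, 1171, 3177, 1357, 1443 and 1819.6 for replicates 5 to 10. Replicates 3 and 4 of R26-WT lay below all other libraries and replicate 7 of R26-TIR1(F74G) above all others, while the remaining values of the groups were interleaved. The R26-WT mean was 1099 ± 543 (SD, n = 4) against 1821 ± 726 (SD, n = 6) with TIR1(F74G), a fold of 1.66 (95% interval 1.06 to 2.59). With genotype as the only term this difference did not pass the test (log2 fold change 0.73, SE 0.33, unadjusted p = 0.0257, DESeq2 adjusted p = 0.519). Within a group the SD was 49.5% of the mean in R26-WT and 39.9% in R26-TIR1(F74G). Leaving out each of the 10 libraries in turn gave log2 fold changes from 0.50 (without R26-TIR1(F74G) replicate 7) to 1.04 (without R26-WT replicate 2), and Pde3b was called in 0 of these 10 fits.

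The spread of Pde3b ran along a pattern shared by many genes. That pattern was summarised as 1 surrogate variable, a score per library that svaseq estimates from the counts of all tested genes, Pde3b included, with genotype kept in the model. The score was 0.45 and 0.36 in R26-WT replicates 3 and 4, the libraries with the lowest Pde3b. It was lowest, at -0.58, in replicate 7 of R26-TIR1(F74G), where Pde3b was highest. The score also ran with the dependence of counts on gene length. The slope of log2 counts per doubling of length was -0.14 and -0.11 in R26-WT replicates 3 and 4 and 0.17 in R26-TIR1(F74G) replicate 7. RNA integrity of single libraries was not given in the sources used here, and its part in this score was not tested.

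With the surrogate variable in the DESeq2 fit, Pde3b was called higher in R26-TIR1(F74G) (log2 fold change 0.59, SE 0.11, 1.50-fold with a 95% interval of 1.29 to 1.76, adjusted p = 2.50e-05). That fit called 4.54% of all genes in either direction, 2.86% of all genes in the higher direction, and 1 of the 10 members. The same variable in the edgeR test gave a log2 fold change of 0.59 and an adjusted p of 0.0124 (1 of 10 members, 1.74% of all genes called higher). When the surrogate variable was estimated again without each library in turn, Pde3b was called in 10 of 10 DESeq2 fits, with log2 fold changes from 0.47 to 0.68 and adjusted p from 4.72e-09 to 4.62e-04. Removing the length trend instead gave 0.68 (SE 0.23, DESeq2 adjusted p = 0.0935), which was not called. The estimate was above 0 in each of these fits, and Pde3b was called only in those with the surrogate variable. Their p-values treat the score as known, although it was estimated from the same counts, so they may be too small. The 10 fits without each library share most of their libraries and are not independent of each other. Score and level can be read side by side for each R26-WT library. R26-WT replicate 2 (score -0.36) had 1743 normalized counts of Pde3b, and the R26-TIR1(F74G) libraries on either side of it in score, replicates 7 (-0.58) and 5 (-0.14), had 3177 and 1957. R26-WT replicate 1 (-0.15) had 1353, close to replicate 8 of R26-TIR1(F74G) (-0.067, 1357) and below replicates 5 (1957) and 10 (-0.056, 1819.6). R26-WT replicates 4 (0.36) and 3 (0.45) had 666 and 632, below replicates 9 (0.31, 1443) and 6 (0.23, 1171) of R26-TIR1(F74G). The score was estimated with genotype in the model and with Pde3b among the genes, so these are descriptions.

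**Figure D2:**
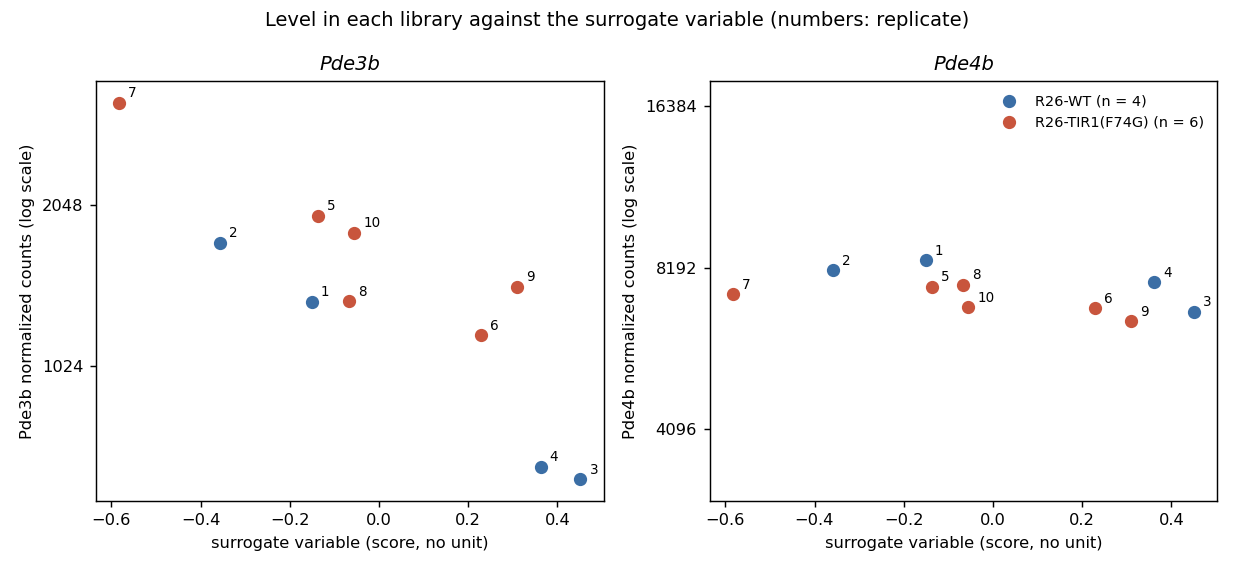
Normalized counts of Pde3b (left) and Pde4b (right) on a log2-scaled y axis against the surrogate variable score on the x axis (no unit), one numbered point per library, R26-WT in blue and R26-TIR1(F74G) in red. Pde3b runs from 1743 at a score of -0.36 to 632 at 0.45 in R26-WT, and from 3177 at -0.58 to 1443 at 0.31 in R26-TIR1(F74G) with its lowest value of 1171 at 0.23, while Pde4b spans 6501 to 8447 over all libraries.

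Pde4b, Pde4d and Pde4a encode cAMP-specific enzymes of the family that rolipram inhibits. Pde4b (chromosome 4, 101944740 to 102464456, plus strand) was the most abundant of the measured phosphodiesterases in the set. It had 8447, 8102, 6780 and 7688 normalized counts in R26-WT, and in R26-TIR1(F74G) a lowest value of 6501, a median of 7102 and a highest value of 7615. The ranges of the groups overlapped, with the 3 highest libraries in R26-WT and the lowest in R26-TIR1(F74G), and the log2 fold change was -0.12 (SE 0.098, 95% interval -0.31 to 0.069). With the surrogate variable it was -0.15 (SE 0.059, DESeq2 adjusted p = 0.149), so a fall was not called in either fit.

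Pde4d (chromosome 13, 108586482 to 110089995, plus strand) had 1071, 1324, 785 and 824 normalized counts in R26-WT. In R26-TIR1(F74G) its values ran from 874 through a median of 975 to 1156. The means, 1001 ± 249.7 (SD, n = 4) and 996 ± 120.1 (SD, n = 6), were closer than the replicates of either group (log2 fold change -0.0072, 95% interval -0.34 to 0.33). Pde4a (chromosome 9, 21077010 to 21124544, plus strand) was a low-count gene with 127, 126, 73.2 and 76.1 normalized counts in R26-WT. Its values in R26-TIR1(F74G) fell into 2 low libraries (60.6 and 58.2, replicates 9 and 10) and 4 libraries between 114 and 219. The R26-TIR1(F74G) group thus held both the lowest and the highest values of the gene, and the log2 fold change of 0.45 had an interval from -0.30 to 1.20.

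Pde7a encodes a cAMP-specific enzyme that rolipram does not inhibit. The gene (chromosome 3, 19277272 to 19365486, minus strand) had 2102, 2158, 1407 and 1166 normalized counts in R26-WT. In R26-TIR1(F74G) its lowest value was 1745, its median 2096 and its highest 3003, the last in replicate 7. As for Pde3b, R26-WT replicates 3 and 4 were the 2 lowest libraries. The log2 fold change of 0.35 (SE 0.21, unadjusted p = 0.0897, DESeq2 adjusted p = 0.940) did not pass the test, nor did the value with the surrogate variable (0.27, SE 0.10, adjusted p = 0.106).

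Pde2a encodes an enzyme that hydrolyses both cAMP and cGMP and is stimulated by cGMP. The gene (chromosome 7, 101070898 to 101162034, plus strand) had 67.7, 120.03, 87.1 and 97.2 normalized counts in R26-WT, and 72.2 to 104 with a median of 77.0 in R26-TIR1(F74G). The log2 fold change was -0.19 (SE 0.21, 95% interval -0.60 to 0.22). Its count is uncertain, because 64.3% of its exon bases are shared with Gm45837 on the same strand and read pairs that overlap both genes were left out of the count.

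**Figure D3:**
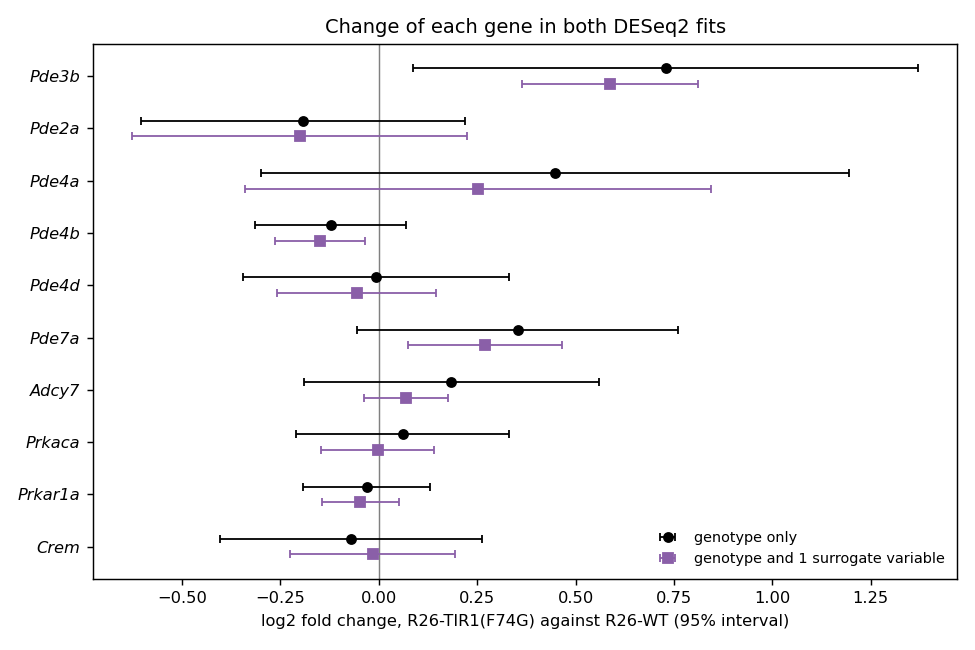
Log2 fold change of R26-TIR1(F74G) against R26-WT for each of the 10 genes (x axis) with 95% intervals, from DESeq2 with genotype only (black circles) and with 1 surrogate variable added (purple squares). The Pde3b interval narrows from 0.088 to 1.37 without the variable to 0.36 to 0.81 with it, and Pde3b is the one member called in the second fit.

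Adcy7 encodes an adenylate cyclase of blood cells, the enzyme that makes cAMP. The gene (chromosome 8, 88999031 to 89056590, plus strand) had 8345, 9502, 6192 and 6851 normalized counts in R26-WT. In R26-TIR1(F74G) the lowest value was 7020.5, the median 8535 and the highest 12704, again in replicate 7. Without a surrogate variable the log2 fold change was 0.18 (SE 0.19, 95% interval -0.19 to 0.56), and with it 0.068 (SE 0.054, adjusted p = 0.702). The gene was called in neither DESeq2 fit, and without R26-TIR1(F74G) replicate 7 its value with genotype only was 0.048.

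Prkaca encodes the catalytic alpha subunit of protein kinase A. The gene (chromosome 8, 84699622 to 84723072, plus strand) had 3912, 3979.8, 3362 and 3349.5 normalized counts in R26-WT and 2927 to 4422, with a median of 3777, in R26-TIR1(F74G). The R26-TIR1(F74G) range enclosed that of R26-WT, with a log2 fold change of 0.061 (95% interval -0.21 to 0.33). Of its exon bases, 5.11% are shared with a gene on the opposite strand, and in these unstranded counts read pairs that overlap both genes were left out.

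Prkar1a, which encodes the regulatory subunit that holds the kinase inactive until cAMP binds, was the gene of the set with the highest level. It lies on chromosome 11, 109540231 to 109560482, plus strand. Its normalized counts were 33345, 32199, 28024.5 and 28359.8 in R26-WT. In R26-TIR1(F74G) they ran only from 29484.5 to 30396 around a median of 29644. The SD was 8.82% of the mean in R26-WT and 1.28% in R26-TIR1(F74G), so the narrower group lay inside the gap between the 2 high and 2 low R26-WT libraries. The log2 fold change was -0.031 (95% interval -0.19 to 0.13), the narrowest interval among the 10 genes.

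Crem encodes a CREB family factor whose short forms repress cAMP-responsive genes, forms that counts per gene cannot separate. The gene (chromosome 18, 3266048 to 3337748, minus strand) had 772, 878, 999 and 905 normalized counts in R26-WT and 685 to 1120.5, with a median of 772, in R26-TIR1(F74G). Its lowest value, 685, was in replicate 7 of R26-TIR1(F74G), the library with the most Pde3b. The log2 fold change of -0.071 (95% interval -0.40 to 0.26) was smaller than the spread between replicates. Of its exon bases, 8.01% are shared with a gene on the opposite strand.

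Levels were compared between genes on the scale of TPM, computed from counts and the gene lengths in the files. Prkar1a stood first, at 477 ± 80.0 TPM in R26-WT against 483 ± 32.5 with TIR1(F74G) (SD, n = 4 and n = 6). Prkaca followed at 99.4 ± 17.4 and 107.7 ± 21.4 TPM, and Adcy7 at 78.1 ± 21.3 and 92.2 ± 28.1. Prkaca was above Adcy7 in 9 of 10 libraries, and their ranges overlapped. Pde4b had 49.7 ± 8.27 and 47.3 ± 5.28 TPM, below Adcy7 in 10 of 10 libraries. Pde7a (15.1 ± 5.51 and 19.9 ± 5.20 TPM) was above Pde3b (8.36 ± 4.72 and 14.2 ± 6.67 TPM) in 10 of 10 libraries. Pde3b and Crem (10.1 ± 0.709 and 9.93 ± 1.52 TPM) did not keep an order, with Pde3b higher in 6 of 10 libraries. Pde4d (5.70 ± 1.88 and 5.82 ± 0.941 TPM) lay below Crem in 10 of 10 libraries with no overlap. At the foot, Pde4a (0.900 ± 0.334 and 1.28 ± 0.701 TPM) and Pde2a (1.02 ± 0.286 and 0.929 ± 0.154 TPM) changed places, with Pde4a higher in 5 of 10 libraries. The TPM of Pde2a uses its full length, although 64.3% of its exon bases are shared with Gm45837. Read pairs that overlap both genes were left out, so its level and place may be too low.

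**Figure D4:**
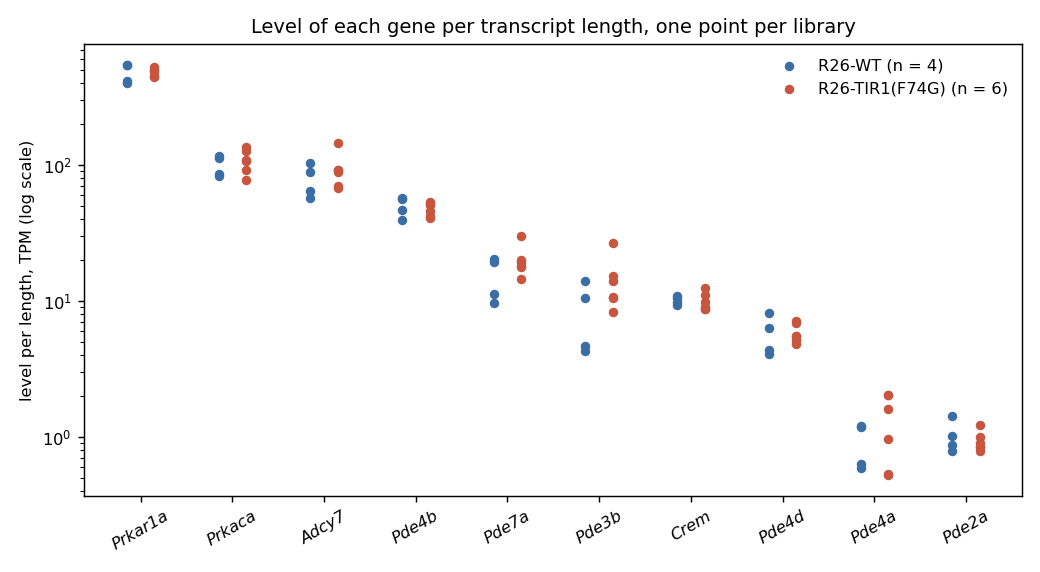
Level of each gene in TPM (y axis, log scale), one point per library, R26-WT in blue and R26-TIR1(F74G) in red, with genes ordered by their mean. Prkar1a lies above all other members and Pde4a and Pde2a lie near 1 TPM, while the points of Pde3b and Crem overlap. The level of Pde2a may be too low, because read pairs that also overlap Gm45837 were left out.

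Among the 6 phosphodiesterases of the set, Pde4b made up most of the summed TPM, at 62.6% ± 6.19 in R26-WT against 53.6% ± 4.94 with TIR1(F74G) (SD, n = 4 and n = 6). Pde7a made up 18.3% ± 2.75 and 22.1% ± 1.86. The share of Pde3b was 11.1%, 13.8%, 7.06% and 6.99% in the R26-WT libraries. In R26-TIR1(F74G) replicates 5 to 10 it was 16.0%, 11.5%, 22.4%, 11.8%, 13.9% and 16.5%. All 6 R26-TIR1(F74G) shares were above 3 of the 4 R26-WT shares, and R26-WT replicate 2 lay among them, so the groups overlapped. The summed level was 80.8 ± 20.2 TPM in R26-WT and 89.4 ± 17.3 TPM in R26-TIR1(F74G), a difference smaller than the SD of either group.

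The genes whose pattern over the 10 libraries was most like that of Pde3b were taken from 10648 genes with a mean normalized count of at least 50, by Pearson's r of log2 normalized counts. They were E2f4 (r = 0.977), Tox4 (0.977), Atxn7l1 (0.973) and Vps35l (0.972), none of which was called between genotypes. Among the members, Pde7a was nearest with r = 0.947 at rank 38, followed by Adcy7 with r = 0.894 at rank 326. Pde4d reached 0.70 and Prkaca 0.66. Pde4b was at 0.11, or 0.59 for deviations from the group means, and Crem was negative at -0.59. These coefficients describe 10 libraries that share the same preparation, length dependence and genotype groups, and carry no test.

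Of 89 other genes of cAMP signalling, 71 were tested. Of these 1 was called higher and 1 lower by DESeq2 (1.40% and 0.336% of all genes), and edgeR called 0 of them. At an unadjusted p under 0.05, DESeq2 counted 7 of the 71, a share of 9.86% near the 6.86% of all genes. The median log2 fold change was 0.042, with 39 genes above 0 and 32 below. Upstream of the cyclases stand G protein-coupled receptors and G proteins. Of the receptors, 10 of 13 were tested and 0 called, with a median of 0.15 and 3 at an unadjusted p under 0.05. The prostaglandin E2 receptor Ptger4 (log2 fold change 0.17, SE 0.15) and the sphingosine phosphate receptor S1pr4 (0.042, SE 0.15), which is not known as a Gs-coupled receptor as most of the list are, had the highest counts. Of the G protein genes 7 of 8 were tested and 0 called, with values of -0.065 (SE 0.10) for Gnai2, an inhibitory alpha subunit, and -0.096 (SE 0.13) for the beta subunit gene Gnb1.

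Among enzymes that make or degrade cyclic nucleotides, 4 of 9 other adenylate cyclases and 9 of 14 other phosphodiesterases were tested, and 0 were called in either list. The cyclases Adcy3 and Adcy6 had log2 fold changes of 0.095 (SE 0.32) and 0.28 (SE 0.25). Pde6d, a carrier of prenylated proteins rather than a catalytic subunit, had -0.20 (SE 0.18) and Pde12, a phosphodiesterase of mitochondrial RNA, 0.053 (SE 0.091). These 2 genes are named for their high counts and do not hydrolyse cAMP. Pde3a, the nearest relative of Pde3b, was not among the tested genes.

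Downstream of cAMP, 0 of 6 tested protein kinase A genes, 0 of 4 genes of other effectors and export, 0 of 11 A-kinase anchoring proteins and 0 of 8 CREB factors and coactivators were called. The catalytic subunit gene Prkacb had 11344 ± 4229.9 normalized counts in R26-WT and 12344 ± 2952 in R26-TIR1(F74G), a log2 fold change of 0.12 (SE 0.25), and the regulatory subunit gene Prkar2a had 0.21 (SE 0.22). Abcc4, a transporter that exports cAMP, had 0.30 (SE 0.38) and the scaffold gene Pde4dip 0.044 (SE 0.24). The anchoring protein genes Akap13 and Ezr had 0.081 (SE 0.24) and -0.037 (SE 0.086). Values for the coactivator Crebbp and for Creb3 were -0.053 (SE 0.15) and -0.030 (SE 0.16).

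Both called genes came from the 12 tested of 13 known CREB target genes, and they moved in opposite directions. The list had a median log2 fold change of -0.31, with 9 of the 12 below 0 (49.9% of all genes) and 4 at an unadjusted p under 0.05 (6.86% of all genes). The list was chosen with earlier results of these data known, so these shares are descriptions. Whether they reflect CREB activity was not tested. Fos, an AP-1 subunit induced within minutes of stimulation, had 7013, 3532, 3254 and 2703 normalized counts in R26-WT and 1635 to 3175 in R26-TIR1(F74G). Its fall (log2 fold change -0.88, SE 0.26, DESeq2 adjusted p = 0.0493, edgeR adjusted p = 0.244) stood close to the threshold, and leaving out each library in turn kept it past the threshold in 2 of 10 cases, those without R26-WT replicate 4 and R26-TIR1(F74G) replicate 5. The estimate was below 0 in all 10 cases, at -0.50 (DESeq2 adjusted p = 0.463) without R26-WT replicate 1 and from -0.81 to -1.04 in the others. Bcl2, which opposes apoptosis, had 35859.8, 48550.5, 36792 and 42320.3 normalized counts in R26-WT and 49017 to 55092 in R26-TIR1(F74G), so the groups did not overlap. Its rise was 0.37 (SE 0.11, DESeq2 adjusted p = 0.0431, edgeR adjusted p = 0.192), and leaving out each library in turn kept it past the threshold in 1 of 10 cases, that without R26-WT replicate 2. Egr1, the other high-count gene of the list, had 0.063 (SE 0.10).

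**Figure D5:**
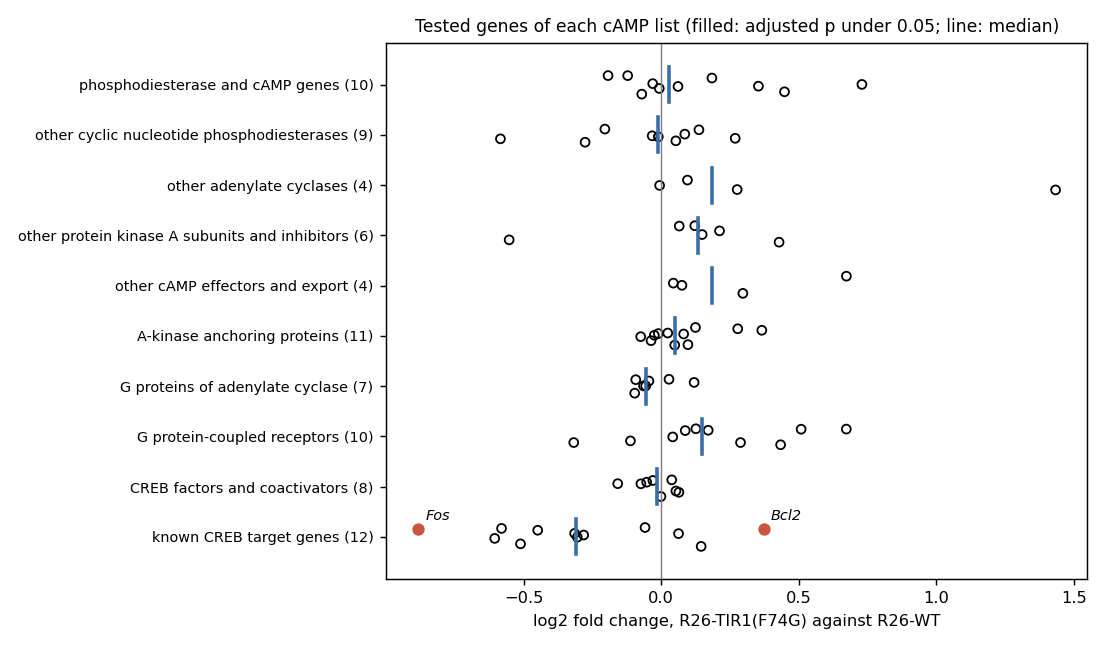
Log2 fold change of R26-TIR1(F74G) against R26-WT (x axis) for each tested gene of the set and of 9 further cAMP lists (rows, number tested in brackets), with filled red points for genes with a DESeq2 adjusted p under 0.05 and a blue line at each list's median. The called points are Fos at -0.88 and Bcl2 at 0.37, both among the known CREB target genes.

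With the surrogate variable in the fit, 6 of the 71 genes were called, against 4.54% of all genes. Beside Fos (-0.93) and Bcl2 (0.36), these were Ptger2, Ptgir, Sik1 and Dusp1, which are named here after their values were seen. The Gs-coupled receptor genes Ptger2 (log2 fold change 0.28, SE 0.090, adjusted p = 0.0390) and Ptgir (0.41, SE 0.12, adjusted p = 0.0176), for prostaglandin E2 and prostacyclin, were higher in R26-TIR1(F74G). The CREB target genes Sik1, a kinase that restrains CREB coactivators (-0.40, SE 0.10, adjusted p = 0.00275), and Dusp1, a phosphatase of MAP kinases (-0.62, SE 0.18, adjusted p = 0.0149), were lower. In the DESeq2 fit with genotype only their adjusted p-values were 0.300 for Ptger2, 0.136 for Ptgir, 0.99996 for Sik1 and 0.174 for Dusp1.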

How the data were processed

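RNA-seq was performed by the authors on Treg cells, with 4 R26-WT and 6 R26-TIR1(F74G) libraries and 1 library per file. The cDNA was made, per the labels, from low RNA inputs with PCR and no molecular identifiers, so counting error is a lower limit of technical error. The deposited values were raw counts of read pairs per gene. Per the file headers, the authors used featureCounts 2.1.1 with GENCODE M30 (GRCm39), primary alignments, mapping quality of at least 30, both mates mapped and no strand option. The study's methods name STAR and the submitters' processing notes Bowtie2, and which aligner made these files was not settled here. Read pairs on several genes were left out, which lowers counts of overlapping genes.

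Within groups, 21 pairs of libraries were compared and differed beyond sampling noise (chi-square per degree of freedom from 9.45 to 215). That the 10 libraries come from separate mice is not stated in the labels, so p-values measure the spread between libraries. The 16363 of 55809 gene rows with a mean count of at least 10 were tested with DESeq2 1.42.0 in R 4.3.3 (Wald test, two-sided, with a genotype term and Benjamini-Hochberg adjustment). DESeq2 gave no adjusted p for 6 of them. TPM was computed from counts and the length column, and scores are means of log2(normalized count + 1). Intervals are ± 1.96 SE. Alternatives were edgeR 4.0.16 (quasi-likelihood), limma 3.58.1 (voom with quality weights), TMM factors, no filter, removal of the length trend, 1 surrogate variable (sva 3.50.0), and leaving out each library. The surrogate variable in edgeR, and its fits without each library, were added after seeing the data. Scripts were tested on simulated data. The genes and lists were chosen with earlier results of these data known. Named genes are the 10 members, every called gene of the pathway lists, the 2 tested genes of each list with the highest mean, and the 4 genes most like Pde3b.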

Additional observations from a re-analysis of the deposited data

Results flagged for a closer look

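In 22 groups of values examined for a library far from the others, 2 were found, and chance gives about 1 in 20. Both were R26-TIR1(F74G) replicate 7. Its Pde7a level was 3003 normalized counts, with the nearest library of the group at 2161, a gap of 0.670 of the group's range. Its Adcy7 level was 12704 normalized counts, with the nearest at 8739, a gap of 0.698 of the range. The same library had the highest Pde3b level (3177) and the lowest surrogate variable score (-0.58). The cause was not tested.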

How the results depend on the processing

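Over 7 alternatives to the DESeq2 fit with genotype only and 20 fits without 1 library, 0 members were called lower and no member other than Pde3b was called. The number of members called higher was 1 with 1 surrogate variable, in DESeq2 and in edgeR, and 1 in each of the 10 surrogate variable fits without 1 library. It was 0 in the other fits. Genes called over the whole table, 284 in the DESeq2 fit, numbered 61 with edgeR, 80 with limma voom, 743 with 1 surrogate variable, 512 to 789 in the surrogate variable fits without 1 library, and 187 to 346 in the fits without 1 library (187 without R26-WT replicate 4). Called cAMP pathway genes, 2 in the DESeq2 fit, numbered 0 with edgeR, limma voom and removal of the length trend, 1 with TMM factors and without the count filter, 6 with 1 surrogate variable, and 0 to 2 without 1 library. Fos was called in 2 and Bcl2 in 1 of the 10 fits without 1 library. Log2 fold changes of 4 members not called in any fit kept their sign. Without 1 library they ran from 0.048 to 0.30 for Adcy7, 0.21 to 0.49 for Pde7a, 0.27 to 0.61 for Pde4a and -0.18 to -0.079 for Pde4b, and with the surrogate variable also in the fit from 0.043 to 0.10, 0.17 to 0.33, 0.057 to 0.41 and -0.18 to -0.12. Values near 0 changed sign. The log2 fold change of Pde4d was 0.075 with limma voom, -0.11 to 0.16 without 1 library, and 0.058 with the surrogate variable and without R26-WT replicate 2. That of Prkaca was -0.0026 and -0.0058 with the surrogate variable in DESeq2 and edgeR, -0.042 to 0.057 in the surrogate variable fits without 1 library, and 0.014 to 0.13 in the others without 1 library. Prkar1a ran from -0.068 to 0.015 without 1 library, and, with the surrogate variable, Pde2a from -0.35 to 0.031 and Crem from -0.077 to 0.096. Without the variable, leaving out 1 library gave -0.16 to -0.0088 for Crem and -0.32 to -0.050 for Pde2a. The causes were not tested. No paired analysis was possible because replicates are numbered 1 to 4 in one group and 5 to 10 in the other. Pde2a and Pde4a had the lowest counts of the members, and the SD of Pde4a was 29.7% of the mean in R26-WT and 51.1% in R26-TIR1(F74G).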
